A study of Mus musculus with 8 samples.

Results

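Plet1 and the CEACAM genes Ceacam1, Ceacam2, Ceacam10, Ceacam18 and Ceacam20 were examined in mouse duodenum with and without IκBα in the epithelium. The genes were found by symbol among the probe sets of the array, and each had 1 probe set, which gave 6 of 22206 probe sets. The group was chosen by the measured differences between knockout and wild type, in which Plet1 and Ceacam10 were already known to rise, so these values are described and are not tested. RNA came from 4 knockout mice, in which floxed IκBα (gene Nfkbia) was recombined by Villin-Cre, a Cre active in the intestinal epithelium, and from 4 WT littermates, 1 for each knockout. The deletion takes out the promoter and the first exons, and whether the littermates carry the floxed allele or Cre is not stated in the labels. Both groups were untreated, were 8 to 11 weeks old and had 2 males and 2 females each. The siblings had the same sex in pairs 1 and 2 and opposite sexes in pairs 3 and 4. The values are log2 expression on Clariom S arrays, a 1-colour array hybridised here with RNA of whole snap-frozen tissue. A change in the number of cells of a type and a change in RNA per cell cannot be told apart in such tissue.

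IκBα holds the transcription factor NF-κB in the cytoplasm, and its loss frees NF-κB to act on its target genes. Plet1 encodes a glycoprotein held on the cell surface by a glycosylphosphatidylinositol (GPI) lipid anchor, known as a marker of progenitor cells in thymus and hair follicle epithelium. The CEACAM proteins belong to the immunoglobulin superfamily and serve in adhesion and signalling between cells, and in the gut several line the brush border that faces the lumen.

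The promoters of the genes are shown first, because Ceacam10 and Ceacam1 are nearly the same in these bases. Ceacam10 had the largest rise of the CEACAM genes examined, and Ceacam1 rose little. All 6 genes had an entry in the RefSeq promoter table of GRCm38.p6, and Ceacam10 had 2 windows for 2 start sites. Only the first Ceacam10 window is printed and aligned here. The 250 bases before the start site are given 5′ to 3′ on the gene's own strand. In Ceacam10 (chr7:24776917-24777166, plus strand) and Ceacam1 (chr7:25477626-25477875, minus strand) the capitals mark the longest stretch that both share without a mismatch, of 114 bases. In Ceacam2 (chr7:25540005-25540254, minus strand) they mark the longest such stretch shared with Ceacam10, of 20 bases. In Plet1 (chr9:50494275-50494524, plus strand) they mark a match to a loose AP-1 pattern and, nearer the start, a TATA box.
Ceacam10: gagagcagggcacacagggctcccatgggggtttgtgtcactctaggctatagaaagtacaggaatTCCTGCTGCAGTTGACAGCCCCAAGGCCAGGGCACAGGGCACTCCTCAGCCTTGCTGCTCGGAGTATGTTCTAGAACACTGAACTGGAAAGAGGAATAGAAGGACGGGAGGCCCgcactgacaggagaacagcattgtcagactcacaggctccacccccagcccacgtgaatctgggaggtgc
Ceacam1: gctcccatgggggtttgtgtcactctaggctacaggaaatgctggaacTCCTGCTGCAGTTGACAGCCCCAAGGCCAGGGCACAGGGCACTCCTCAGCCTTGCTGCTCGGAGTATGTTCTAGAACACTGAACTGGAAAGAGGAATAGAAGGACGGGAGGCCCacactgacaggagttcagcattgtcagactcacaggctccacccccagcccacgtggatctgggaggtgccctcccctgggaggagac
Ceacam2: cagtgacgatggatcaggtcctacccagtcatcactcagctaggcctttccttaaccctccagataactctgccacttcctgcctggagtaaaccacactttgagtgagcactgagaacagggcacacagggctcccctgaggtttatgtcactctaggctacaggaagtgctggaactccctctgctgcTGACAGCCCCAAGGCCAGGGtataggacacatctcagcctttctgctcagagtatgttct
Plet1: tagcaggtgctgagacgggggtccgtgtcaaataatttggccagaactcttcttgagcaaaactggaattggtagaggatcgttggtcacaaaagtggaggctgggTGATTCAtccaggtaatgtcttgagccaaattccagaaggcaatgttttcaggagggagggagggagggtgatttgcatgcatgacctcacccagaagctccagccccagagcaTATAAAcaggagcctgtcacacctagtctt

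In a local alignment the promoters of Ceacam1 and Ceacam10 were identical at 222 of 232 aligned columns, or 95.7%. Ceacam2 was identical to Ceacam10 at 117 of 138 columns (84.8%) and to Ceacam1 at 104 of 120 (86.7%), with its annotated start site placed farther upstream in the shared sequence. Plet1, Ceacam18 and Ceacam20 aligned with the other genes over stretches of 10 to 66 columns only. The NF-κB consensus motif, searched on both strands, had no match in these 250 bases in any of the 6 genes, in 7 windows, and was present in 3.90% of 32841 promoters of this length. The TATA box (TATAAA, both strands) was found in Plet1, 30 bases before the start, and in Ceacam18 at 154 and 112 bases, against 12.4% of all promoters. A loose AP-1 pattern (TGANTCA, with any base at the centre, both strands) was matched in Plet1 alone of the 6, against 6.75% of all promoters. The match, 144 bases before the start, read TGATTCA, with T at the open position. A match or its lack describes the letters in this window and says nothing of binding.

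Plet1 had the largest mean rise of the 22206 probe sets. Its log2 values were 11.45, 11.69, 10.77 and 11.10 in knockouts 1 to 4 and 7.29, 7.06, 8.19 and 8.01 in their WT siblings. Every knockout lay above every WT mouse, and the lowest knockout was 2.58 above the highest WT. The within-pair differences were 4.16, 4.63, 2.58 and 3.09, with a mean of 3.62 ± 0.944 (log2, SD, n = 4 pairs), which is 12.3-fold. The size ran from 5.98-fold in pair 3 to 24.8-fold in pair 2, so the pairs differed widely in how far Plet1 was raised while sharing its direction.

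Ceacam10, which encodes a secreted CEACAM without a membrane anchor, ranked 3 by mean rise. It measured 12.19, 12.20, 11.73 and 11.99 in knockouts 1 to 4 and 8.84, 8.81, 9.30 and 9.18 in WT siblings. The groups did not overlap, with 2.43 between the lowest knockout and the highest WT. The differences of 3.35, 3.39, 2.43 and 2.81 had a mean of 3.0 ± 0.460 (n = 4 pairs), or 7.97-fold. As for Plet1, pair 3 had the smallest difference and pair 2 the largest.

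**Figure D1:**
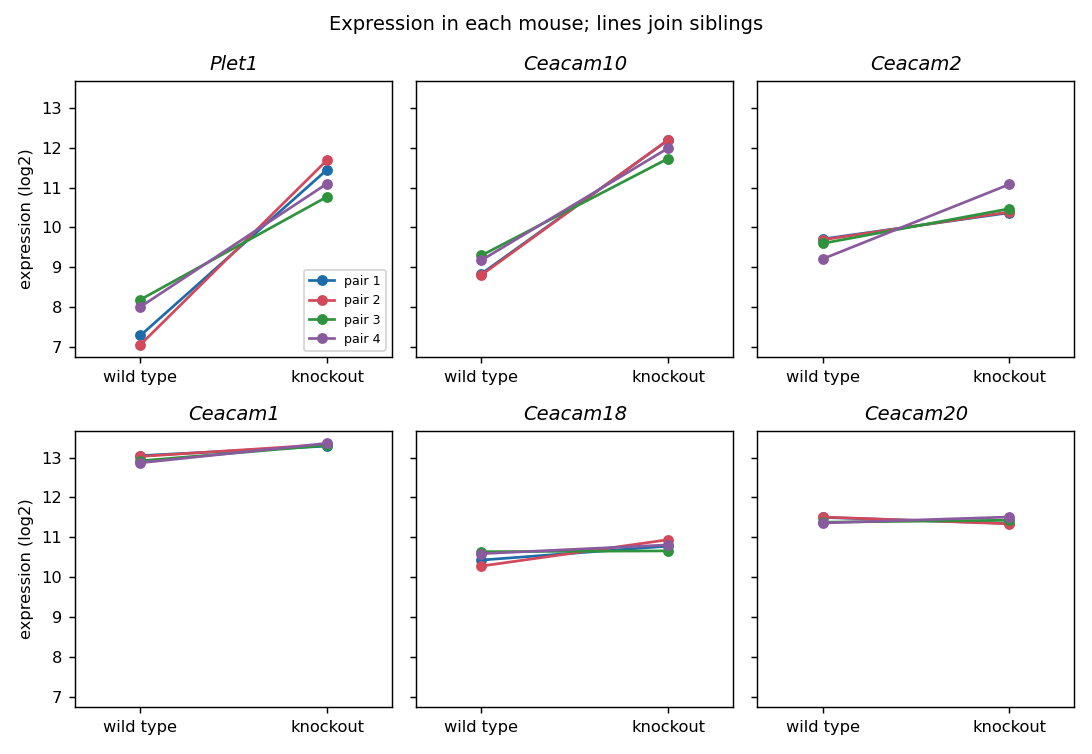
Log2 expression of the 6 genes in each mouse, with wild type on the left, knockout on the right and a line joining the siblings of each pair. Plet1 and Ceacam10 climb in all 4 pairs with no overlap between groups, Ceacam2 climbs most in pair 4, and the lines of Ceacam20 run both ways.

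Ceacam1 encodes the best-known member, a membrane protein whose long form carries inhibitory tyrosine motifs in its tail and which is the receptor of mouse hepatitis virus. Ceacam1 measured 13.29, 13.33, 13.31 and 13.36 in knockouts and 13.05, 13.03, 12.92 and 12.87 in WT siblings. The groups did not overlap, but the gap between them was only 0.24. The mean difference was 0.36 ± 0.109 (0.24, 0.30, 0.39 and 0.49 in pairs 1 to 4), or 1.28-fold, against 7.97-fold for Ceacam10 with its closely similar promoter. These genes started from unlike levels, with WT means of 12.97 for Ceacam1 and 9.03 for Ceacam10. The part of the signal level in this contrast was not tested.

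Ceacam2, a close relative that lies next to Ceacam1 in the RefSeq gene order, measured 10.37, 10.39, 10.47 and 11.08 in knockouts and 9.71, 9.69, 9.60 and 9.21 in WT siblings. The pairs gave 0.66, 0.70, 0.87 and 1.87, a mean of 1.03 ± 0.571 or 2.03-fold, and pair 4 stood apart from the other three. The groups were separated by 0.66. Ceacam1, Ceacam2 and Ceacam10 are related in sequence, and where their probes lie and whether they bind each other's transcripts was not analysed here, so the split of signal between these genes is uncertain.

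Ceacam18 measured 10.78, 10.94, 10.66 and 10.81 in knockouts and 10.43, 10.28, 10.64 and 10.59 in WT siblings. The groups were separated by only 0.02, and pair 3 was almost level (0.35, 0.66, 0.02 and 0.22, mean 0.31 ± 0.268).

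Ceacam20 encodes a protein of enterocyte microvilli whose tail can engage the kinase Syk. It measured 11.35, 11.34, 11.43 and 11.51 in knockouts and 11.50, 11.51, 11.38 and 11.36 in WT siblings. The groups overlapped, pairs 1 and 2 were lower in the knockout (−0.15 and −0.17) and pairs 3 and 4 higher (0.05 and 0.15), and the mean of −0.03 ± 0.156 lay within the spread between pairs.

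**Figure D2:**
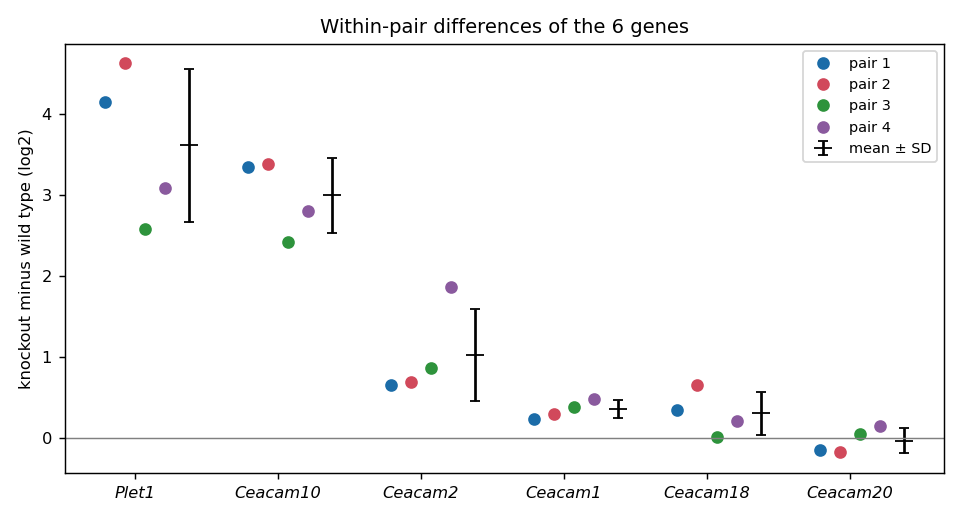
Knockout minus wild-type log2 difference in each sibling pair (points, coloured by pair) for the 6 genes, with the mean and SD of the 4 pairs in black. Plet1 and Ceacam10 lie between 2.43 and 4.63, Ceacam2 between 0.66 and 1.87, and the remaining genes at or below 0.66.

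All 6 genes averaged above 5.65 in both groups, a background level set at the 95th percentile over 1091 probe sets of olfactory receptors. Limma with the sibling pair as a block, adjusted over all probe sets (Benjamini-Hochberg, threshold 0.05), called 4 of the 6 (Plet1, Ceacam10, Ceacam2 and Ceacam1), beside 5.86% of all probe sets. All 4 were called higher and 0 lower, beside 3.16% and 2.70% of all probe sets. Ceacam18 and Ceacam20 were not called. A higher value in all 4 pairs was found in 5 of the 6, against 16.5% of all probe sets, and groups without overlap with the knockouts on top in the same 5, against 15.9%. Since the pair means are nearly equal in the deposited values, the second count restates the first, and the gap between the groups equals the smallest within-pair difference. A mean rise of at least 1 was found in 3 of the 6, against 0.549%. Nothing is read from these counts, since the genes were chosen with this comparison in view. The median of the 6 differences was 0.69 and that of all probe sets −0.015.

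**Figure D3:**
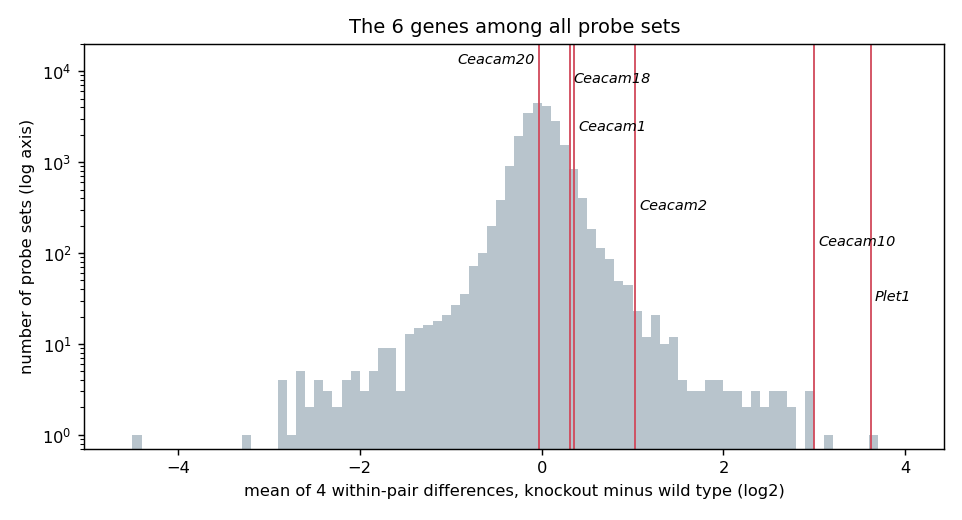
Histogram of the mean within-pair difference of all 22206 probe sets, in bins of log2 expression difference with a log axis for the number of probe sets, and red lines at the 6 genes. Plet1 at 3.62 and Ceacam10 at 3.0 lie at the right end, while Ceacam20 at −0.03 lies in the middle.

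The calls depended on which pairs were used, more for the smaller differences. Plet1 and Ceacam10 were called with any 1 pair left out. Ceacam1 lost its call without pair 1, 2, 3 or 4, and Ceacam2 lost it without pair 1, 2 or 3. So 2, 2, 2 and 3 of the 6 were called without pair 1, 2, 3 or 4. The same fits called 204, 145, 459 and 239 of all 22206 probe sets, against 1301 with all pairs, so calls were lost throughout. Without the block 5 of the 6 were called, Ceacam18 included, beside 7648 of all probe sets.

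The pairs differed in how the genes moved. Plet1 and Ceacam10 differed more in pairs 1 and 2 (means of 4.40 and 3.37) than in pairs 3 and 4 (2.84 and 2.62), and Ceacam18 likewise (0.51 and 0.12). Ceacam1 and Ceacam2 ran the other way, with 0.27 and 0.68 in pairs 1 and 2 and 0.44 and 1.37 in pairs 3 and 4. The deleted gene Nfkbia differed by −2.93, −3.26, −1.29 and −3.13 in pairs 1 to 4, so pair 3, with the smallest rise of Plet1 and Ceacam10, also had the smallest fall of Nfkbia. Ceacam1 and Ceacam2 were not at their lowest in that pair. The other pairs did not follow this order. Nfkbia fell more in pair 4 than in pair 1, yet Plet1 and Ceacam10 rose less in pair 4 (3.09 and 2.81) than in pair 1 (4.16 and 3.35).

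Markers of other tissue moved along the same division of pairs. The counts of calls in these and all later gene lists stand beside 3.16% called higher and 2.70% lower over all probe sets. The 11 adipose genes measured had median differences of 1.66 and 1.3 in pairs 1 and 2 and 0.11 and −0.18 in pairs 3 and 4, with 0 of 11 called by limma. Their summed linear level ran from 4793 to 11039 in knockouts and from 4246 to 8548 in WT mice, and Lep averaged below the background level. The 12 pancreas acinar genes had medians of −0.53, 0.15, −4.07 and −3.37, with 0 of 12 called. Their sums ran from 823 to 2908 in knockouts and from 2362 to 14721 in WT mice, and none averaged below background. The 8 B cell and plasma cell genes had medians of 0.94, 0.62, −0.09 and 0.01 in pairs 1 to 4 and sums from 11000 to 12696 in knockouts and from 9591 to 11196 in WT mice. The 11 smooth muscle and fibroblast genes had medians of 0.31, 0.17, −0.42 and −0.60 and sums from 11512 to 17713 in knockouts and from 14654 to 19621 in WT mice. In both lists limma called 0 genes, and Pax5 alone averaged below background. T cell genes had a median of −0.33 with 1 of 10 higher (Cd4) and 1 lower (Il7r), and endothelial genes a median of 0.17 with 0 of 10 called. The part of these tissues and cells in the size of the 6 differences was not tested.

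Other cells that could carry Plet1 or CEACAM transcripts were looked at through their markers. Of 12 epithelial markers 1 was called higher, the gut transcription factor gene Cdx1 (0.44 ± 0.128, limma adjusted p = 0.0332), and 0 lower, with a list median of −0.06 and sums from 59666 to 63500 in knockouts and from 64362 to 66006 in WT mice. None of the 12 averaged below background. Enterocyte brush border genes had 0 of 12 higher and 1 lower, the lactase gene Lct, with a median of −0.22, and goblet cell genes 1 of 8 higher, Retnlb, which encodes an antimicrobial protein and averaged below background, with a median of 0.03.

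Markers of M cells and the epithelium over lymphoid follicles had a median of 0.25, and 3 of 9 were called, all higher, beside 3.16% of all probe sets. These were the peptidoglycan receptor gene Pglyrp1 (1.65 ± 0.315, limma adjusted p = 0.00355), Tnfaip2 (1.04 ± 0.439, adjusted p = 0.0234) and the RANK gene Tnfrsf11a (0.48 ± 0.214, adjusted p = 0.0427). The other 6 of the 9 were not called. Among them Gp2, a surface marker of mature M cells, differed by −1.63 ± 1.79 (−0.14, −0.02, −3.24 and −3.10 in pairs 1 to 4). The pairs of Gp2 divided as those of the pancreas acinar genes did, and the tissue its transcripts came from was not tested. Marcksl1 differed by −0.19 ± 0.313 and Ccl9 by −0.09 ± 0.610. Spib differed by 0.45 ± 0.323, with each pair positive, Anxa5 by 0.25 ± 0.443 and Sox8 by 0.0 ± 0.165. Without pair 1, 2, 3 or 4 the list had 1, 1, 2 and 1 called higher, and its median was 0.08, 0.16, 0.36 and 0.38. The list's sums were 4367 to 4977 in knockouts and 2696 to 3135 in WT mice, with none of the 9 below background. Pglyrp1 had the highest mean of the 9 in both groups (11.23 in knockouts, 9.58 in WT mice) and weighs most in these sums. Tnfaip2 is also counted in the list of NF-κB target genes. The part of these cells in the rise of Plet1 and Ceacam10 was not tested.

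Dendritic cell and macrophage markers, of interest because Plet1 is also known in dendritic cells, had 1 of 14 higher and 0 lower. The called gene was Flt3, the growth factor receptor of dendritic cells (0.39 ± 0.131, limma adjusted p = 0.0439), which averaged below the background level. The median of this list was −0.05, and its sums ran from 3703 to 5075 in knockouts and from 4819 to 6085 in WT mice. Of 11 neutrophil markers 0 were called by limma, the median was −0.06, and S100a8, S100a9, Cxcr2, Mmp8, Ngp and Retnlg averaged below background. Sums of the neutrophil genes were 514 to 553 in knockouts and 569 to 588 in WT mice.

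Markers of gut regions where these genes could be at other levels were also compared. Stomach genes had a median of −0.74, and 0 of 11 were called higher and 2 lower, the mucin gene Muc5ac (−0.74 ± 0.435) and the pepsinogen gene Pgc (−0.61 ± 0.197). The larger differences in this list varied too much between pairs to be called. The gastrokine genes Gkn1, Gkn2 and Gkn3 and the trefoil factor genes Tff1 and Tff2, named here after their values were seen, had means of −2.72, −3.25, −2.19, −2.84 and −2.41 and were lower in all 4 pairs. In Gkn2 the pairs gave −1.27, −1.14, −5.16 and −5.41, so the division was that of the acinar genes. The summed level of the stomach genes ran from 455 to 871 in knockouts and from 1257 to 5354 in WT mice, Gkn3, Pgc, Krt13 and Krt4 averaged below background, and without dim probe sets the list median was −2.41. The part of stomach tissue in the 6 differences was not tested. Colon genes had a median of −0.02 with 1 of 8 higher and 1 lower, and Car1, Hoxb13, Hoxd13 and Hoxd10 averaged below background.

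Beyond the 6 genes, 23 other genes of the CEACAM family and the pregnancy-specific glycoproteins (PSG), secreted relatives known from placenta, were listed. All of them were measured. Of these 23 genes 0 were called by limma in either direction, and their median difference was −0.1. The difference was largest for Psg28 (0.47 ± 0.614, 1.3 in pair 1 and −0.04 in pair 4, limma adjusted p = 0.221) and Ceacam13 (−0.44 ± 0.227, limma adjusted p = 0.0558). In all, 19 of the 23 averaged below the background level, where differences are understated. Ceacam15, Ceacam16, Psg18 and Psg22 averaged above it, and their differences of 0.01 ± 0.109, −0.16 ± 0.171, −0.11 ± 0.165 and −0.10 ± 0.118 lay within or near the spread between pairs.

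The protein partners through which CEACAM proteins act showed 0 calls by limma among 19 measured genes, with a median of −0.06. The phosphatase gene Ptpn11, whose product docks on the inhibitory motifs of Ceacam1, differed by 0.27 ± 0.0263 with nearly the same value in each pair (0.31, 0.25, 0.27 and 0.26, limma adjusted p = 0.0631). Its relative Ptpn6 differed by −0.04 ± 0.275 (limma adjusted p = 0.851). The kinase gene Syk and the phosphatase gene Ptprh, both linked to Ceacam20, differed by −0.09 ± 0.156 (limma adjusted p = 0.541) and −0.21 ± 0.260 (adjusted p = 0.278). The list's largest differences were those of the bacterial sensors Tlr2 (0.70 ± 0.573, limma adjusted p = 0.0891) and Tlr4 (0.39 ± 0.391, adjusted p = 0.153), which were larger in pairs 1 and 2 than in pairs 3 and 4. Ptpn11, Ptpn6, Syk and Ptprh are named for these known links and outside the rule for naming genes.

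The machinery that builds the GPI anchor, which Plet1 requires, had 2 of 24 genes higher and 1 lower by limma, beside 3.16% and 2.70% of all probe sets, with a median of 0.06. Piga, which encodes the catalytic subunit of the first step, rose from 7.66 to 8.60 (0.94 ± 0.342, limma adjusted p = 0.0199), with 0.48, 1.07, 0.92 and 1.29 in pairs 1 to 4. Pign, an enzyme that modifies the glycan of the anchor, rose by 0.35 ± 0.0685 (adjusted p = 0.0411), and Pigc, a partner of Piga in the first step, changed by −0.41 ± 0.138 (adjusted p = 0.0414). These directions differed even between subunits of 1 enzyme.

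A few other genes of surface proteins with a GPI anchor were called, in both directions. The 34 measured had a median of −0.10. Limma called 2 of them higher and 3 lower, beside 3.16% and 2.70% of all probe sets. With 1 pair left out, at most 2 were called higher and 1 lower. The ectonucleotidase gene Nt5e changed by −2.66 ± 0.997 (limma adjusted p = 0.0158), and the disaccharidase gene Treh by −0.53 ± 0.208 (adjusted p = 0.0337) and the dipeptidase gene Dpep1 by −0.42 ± 0.133 (adjusted p = 0.0375). The interferon-induced tetherin gene Bst2 rose by 0.86 ± 0.140 (adjusted p = 0.00701) and Lypd8, which keeps flagellated bacteria off the colon epithelium, by 0.34 ± 0.0779 (adjusted p = 0.0454).

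Epithelial adhesion genes had a median of −0.02, and 1 of 29 was called, upward. The gene was Cd44, the hyaluronan receptor (0.52 ± 0.231, limma adjusted p = 0.0403, and 0.72, 0.70, 0.25 and 0.40 in pairs 1 to 4). Genes of epithelial repair and of the fetal-like state had 1 of 20 higher and 0 lower, and the called gene was the collagen receptor subunit Itga2 (0.51 ± 0.188, limma adjusted p = 0.0332). The list median was −0.05, and −0.19, −0.25, −0.02 and 0.02 without pair 1, 2, 3 or 4, so its sign turned without pair 4, and limma called 0 of these genes with any 1 pair left out.

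NF-κB feedback and target genes had a median of 0.36, and of 34 genes 14 were called higher and 0 lower. Over all probe sets these shares were 3.16% and 2.70%. With 1 pair left out, 6 to 9 of the list were called higher and 0 lower. Once the arrays were centred on housekeeping genes, 12 of the list were called higher and 5 lower. The 9 housekeeping genes had a median difference of 0.19 themselves, with 7 higher in all 4 pairs, so centring on them lowered every difference. The list was chosen with earlier results of these data known, so its direction is not independent evidence. The largest rises were those of the siderophore-binding gene Lcn2, the cytokine gene Tnf, the chemokine gene Ccl20, the RNase gene Zc3h12a, the ubiquitin-editing gene Tnfaip3 and Tnfaip2. They were 3.16, 2.98, 2.61, 1.46, 1.31 and 1.04 in that order. The mean rise of Plet1 was above and that of Ceacam10 between those of the largest in this list.

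**Figure D4:**
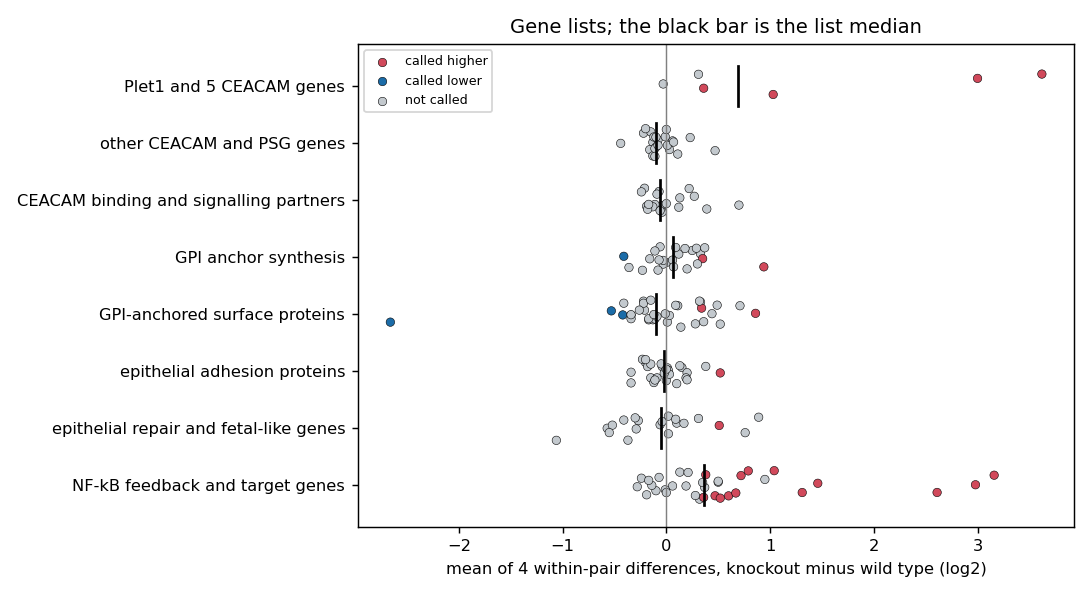
Mean within-pair log2 difference of each gene (points) in the 6 described genes and in 7 gene lists, coloured by the limma call, with a black bar at the list median. Plet1 and Ceacam10 lie beside the 3 highest NF-κB targets, and the other CEACAM and PSG genes lie around −0.1 with 0 calls.

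Genes with the most similar pattern were sought by the Euclidean distance between their 4 within-pair differences and those of each gene with a mean difference of at least 1, over 4 pairs. For Ceacam10 the nearest were the amino acid transporter gene Slc6a14 (distance 0.467), Tnf (0.536), Lcn2 (0.802), the factor H-related gene Cfhr2 (0.960) and the NADPH oxidase gene Nox1 (0.988). Slc6a14 differed by 3.72, 3.34, 2.20 and 2.65 in pairs 1 to 4, larger in pairs 1 and 2 than in pairs 3 and 4, as for Ceacam10. It was picked for its likeness in these differences, so the shared division follows from the choice. For Plet1 the nearest were Slc6a14 (1.48), Ceacam10 (1.51), Lcn2 (1.71), Tnf (1.81) and Nox1 (2.31). For Ceacam2 they were Pcgf1 (0.405), the mevalonate pathway gene Pmvk (0.499), Prom1 (0.507), Bcl9 (0.511) and E2f2 (0.538). The measure mostly reflects the size of the difference, so distances are not compared between the 3 genes.

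The nearest 2 protein-coding genes on each side of each gene in the RefSeq order gave 20 measured neighbours that are not among the 6. Limma called 1 of these higher and 0 lower, beside 3.16% and 2.70% of all probe sets, and nothing is read from this count. The called gene was Cd177, next to Ceacam10, which encodes a GPI-anchored surface protein known from neutrophils. It rose from 6.40 to 7.60 (1.20 ± 0.633, limma adjusted p = 0.0351). Its differences were 1.73, 1.70, 0.42 and 0.95 in pairs 1 to 4, again smallest in pair 3. Erich4 and Cxcl17, beside Ceacam1 and Ceacam2, differed by −0.16 and −0.23, and Pts and Ncam1, beside Plet1, by 0.30 and −0.54, and these were not called.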

How the data were processed

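The authors deposited a log2 value for each probe set. RMA and Transcriptome Analysis Console 4.0 appear in the submitters' processing notes, without further settings. The array medians lay between 6.77 and 6.81. Most differences between sibling pairs had been removed by a step no source used here records. The median SD of the 4 pair means of a probe set was 0.0175, against 0.179 for the within-pair differences, and across probe sets each knockout's deviation from its group mean opposed its sibling's (r from −0.913 to −0.870). A high WT value therefore mirrors a low sibling, and SDs within a group were not used. The labels name the sibling pairs, so the pair was a block in limma 3.58.1 (R 4.3.3; lmFit, eBayes, 3 residual degrees of freedom). P-values are two-sided, adjusted over 22206 probe sets at a threshold of 0.05. The script was tested on simulated data. Values after ± are SDs of 4 within-pair differences, and the number of arrays limits the precision. Differences correlated more between pairs 1 and 2 (0.682) and 3 and 4 (0.673) than otherwise (0.346 to 0.420) across probe sets, so p-values may be too small. Probe sets with 1 symbol numbered 19572 and unnamed ones 2634. A gene with several probe sets was read from the one with the highest mean. The genes, lists, fit and other settings were chosen with earlier results of these data known. Up to 6 called genes per list were named by largest difference, or, with 0 called, the 2 largest, and 5 genes by likeness. Promoters are those of RefSeq for GRCm38.p6, and their transcribed 50 bases were left out. Motifs were chosen after the values were seen.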

Additional observations from a re-analysis of the deposited data

Results flagged for a closer look

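Of 49 sets of 4 values examined, 5 had a value far from the other three (Dixon's ratio past its 95% critical value), and chance gives about 1 in 20 for a single independent group. That rate does not apply to this count: a gene's knockout values, WT values and differences mirror each other, Nfkbia entered with more than 1 set, and some genes were picked for their pattern. Ceacam2 was higher in knockout 4 (11.08) than in the other knockouts, which lay between 10.37 and 10.47 (ratio 0.859). The deleted gene Nfkbia was higher in knockout 3 (7.72) than in the others (6.65 to 6.82, ratio 0.841), and its difference in pair 3 was −1.29 against −2.93 to −3.26 (ratio 0.832). Pigc differed by −0.20 in pair 2 against −0.45 to −0.49 in the others (ratio 0.862). E2f2 differed by 1.38 in pair 4 against 0.78 to 0.83 (ratio 0.917), but it was picked for its likeness to Ceacam2, whose difference is also largest in pair 4, so this follows from the choice.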

How the results depend on the processing

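Plet1 and Ceacam10 kept a positive difference in all 16 other settings and were called in 14 of them, the exceptions being pairs 1 and 2 alone and pairs 3 and 4 alone. Ceacam2 was called in 8 of 16, Ceacam1 in 5, Ceacam18 in 1 and Ceacam20 in 0, and Ceacam20 was positive in only 3. Differences ran from 2.84 to 4.40 for Plet1, 2.62 to 3.37 for Ceacam10, 0.68 to 1.37 for Ceacam2, 0.20 to 0.44 for Ceacam1, 0.12 to 0.51 for Ceacam18 and −0.19 to 0.10 for Ceacam20. The value of 0.20 for Ceacam1 came with centring on housekeeping genes. The reported fit called 4 of the 6 genes. The count was 0 with pairs 1 and 2 alone, 0 with pairs 3 and 4 alone, 2 with sex, 2 with RNA integrity, and 2 to 3 with 1 pair left out. Fits of 2 pairs have 1 residual degree of freedom. The cause of the other changes was not tested.

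Over all probe sets the reported fit called 1301, with 702 higher and 599 lower. Without the replicate block limma called 7648 (3622 and 4026), with the pair as a random block 2018 (982 lower), with trend and robust variance 1997 (1135 higher), at a threshold of 0.1 3304 (1673 and 1631), with sex 464 (231 and 233) and with RNA integrity 364 (212 and 152). By limma pairs 1 and 2 alone gave 0 calls (0 and 0, with 5278 at unadjusted p under 0.05) and pairs 3 and 4 alone 26 (1 and 25). Leaving out 1 pair gave 145 to 459 calls, 89 to 219 higher and 56 to 240 lower. Centring on housekeeping genes, whose own median difference was 0.19, gave 5438 calls (4915 lower). It shifted the overall median difference from −0.015 to −0.17 and lowered the share of higher calls from 54.0% to 9.62%. Leaving out pair 1, 2, 3 or 4 moved the share of higher calls to 66.7%, 61.4%, 47.7% and 59.8%.

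Centred on housekeeping genes, list medians were −0.25 for other CEACAM and PSG genes, −0.21 for CEACAM partners, −0.09 for GPI anchor synthesis, −0.26 for GPI-anchored proteins, −0.17 for adhesion and 0.21 for NF-κB genes. By quantile normalization the other CEACAM and PSG genes had −0.03 and adhesion genes −0.06. Pairs 1 and 2 alone gave −0.05 for other CEACAM and PSG genes and 0.06 for GPI-anchored proteins, and pairs 3 and 4 alone −0.04 for the former, 0.02 for adhesion and −0.36 for repair genes. Leaving out 1 pair put the other CEACAM and PSG median between −0.08 and −0.06. Counts of higher and lower genes over all settings ran, beside the reported ones, from 0 to 1 and 0 to 4 for other CEACAM and PSG genes, 0 to 4 and 0 to 2 for partners, 0 to 7 and 0 to 4 for GPI anchor synthesis, 0 to 8 and 0 to 11 for GPI-anchored proteins, 0 to 5 and 0 to 8 for adhesion, 0 to 3 and 0 to 6 for repair, and 0 to 21 and 0 to 5 for NF-κB genes.

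With 1 pair left out the NF-κB list had 6 to 9 higher, adhesion and repair genes 0, GPI anchor synthesis 0 to 1 and GPI-anchored proteins 1 to 2.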
